A study of Mus musculus with 12 samples.

Results

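The 10 genes described here are the core of the NRF2 and glutathione defence against oxidants: Nfe2l2, Keap1, Slc7a11, Gclc, Gclm, Gsta4, Hmox1, Nqo1, Txnrd1 and Srxn1. They were chosen by name, with earlier results of these data known. The shares that passed, set beside those of all genes, are therefore a description. Each is represented by the probe set that the array annotation assigns to that gene alone and that has the highest mean over the 12 arrays. All 10 had such a probe set, among 22180 genes named by the annotation, and all 10 lay above the filter on dim values described below on each of the 12 arrays.

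NRF2, the product of Nfe2l2, is a transcription factor that the adaptor KEAP1 normally delivers to a ubiquitin ligase for destruction. Oxidants and electrophiles modify KEAP1, NRF2 accumulates, and with a small MAF partner it binds antioxidant response elements in its target genes. These targets import cystine, build and use glutathione, recycle thioredoxin, repair peroxiredoxins, break down haem and reduce quinones. NRF2 protein is controlled mainly by its stability, so its mRNA need not follow its activity, which these arrays did not measure.

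The arrays hold total RNA of MP cells, a mouse model of Group 3 medulloblastoma, a tumour of the cerebellum, in which MYC is the driver; other alleles are not given in the sources used here. The cells came from the cerebella of NSG mice, an immunodeficient host strain, and were dissociated and cultured in Neurocult medium with a proliferation supplement. Cultures of 3 tumours, MP525, MP567 and MP570, received 25 nM LBH589 (panobinostat, an inhibitor of histone deacetylases) or 0.00025% DMSO, its solvent, and were lysed after 6 or 12 h. Each of the 4 groups (DMSO 6 h, LBH589 6 h, DMSO 12 h, LBH589 12 h) therefore has n = 3 cultures, 1 per tumour, and no untreated culture is among them. The 4 cultures of a tumour share their source, so for the comparisons of treatment and time, tumours, not cultures, are the replicates.

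Values are log2 expression values, on which a difference of 1 is a doubling. The level of one gene's probe set cannot be set against that of another, so only differences within a gene are compared. Differences are given with their standard error (SE) from a limma fit of the 4 group means. A gene passed when its Benjamini-Hochberg adjusted p over all 18652 genes tested was below 0.05, two-sided. Array medians lay between 7.10 and 7.21, and pairs of arrays correlated at 0.965 to 0.991. Of all genes called, 53.7% at 6 h and 50.2% at 12 h were higher under LBH589; the share was 39.8% and 33.0% with arrays centred on their medians, and 65.5% and 72.6% with arrays centred on 8 reference genes, which moved the median change of all genes at 12 h from 0.01 to 0.14. Neural progenitor and cerebellar markers were all above the 25th percentile of every array (6 of 6 in each list). Their means ran from 8.04 (Sox2) to 12.45 (Vim) and from 7.44 (Barhl1) to 11.57 (Zic1). The astrocyte (6 of 6), oligodendrocyte (5 of 5) and endothelial (6 of 6) markers on the array were above it too, so this floor does not separate cell types. Of 7 markers of human Group 3 tumours, 6 were above it on every array: Npr3 averaged 10.40, Myc 8.59, Gabra5 7.64, Otx2 7.32, Nrl 6.90 and Crx 6.52, while Impg2, at 6.21, was above it on 11.

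Under LBH589, some classical targets of NRF2 rose and 1 fell, while Nfe2l2 itself did not pass. At 6 h, 5 of the 10 genes passed: Gsta4, Hmox1 and Srxn1 rose, and Keap1 and Gclm fell. Over all genes tested 15.8% passed. At 12 h, 5 of the 10 passed, against 18.2% of all genes: Gsta4, Srxn1, Hmox1 and Nqo1 rose, and Gclm fell. The median change of the 10 genes was -0.10 at 6 h, where the median over all genes was -0.02, and 0.17 at 12 h, where it was 0.01. When the 3 tumours entered the fit as a block, 6 of the 10 passed at each time, against 34% of all genes at 6 h and 37.1% at 12 h. The added gene was Slc7a11, lower at 6 h, and Keap1, lower at 12 h. Averaged over the 2 times, 6 of the 10 passed with or without the block (Gsta4, Hmox1, Srxn1, Nqo1 higher; Keap1, Gclm lower), where 30.1% of all genes passed without it and 45.9% with it.

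**Figure D1:**
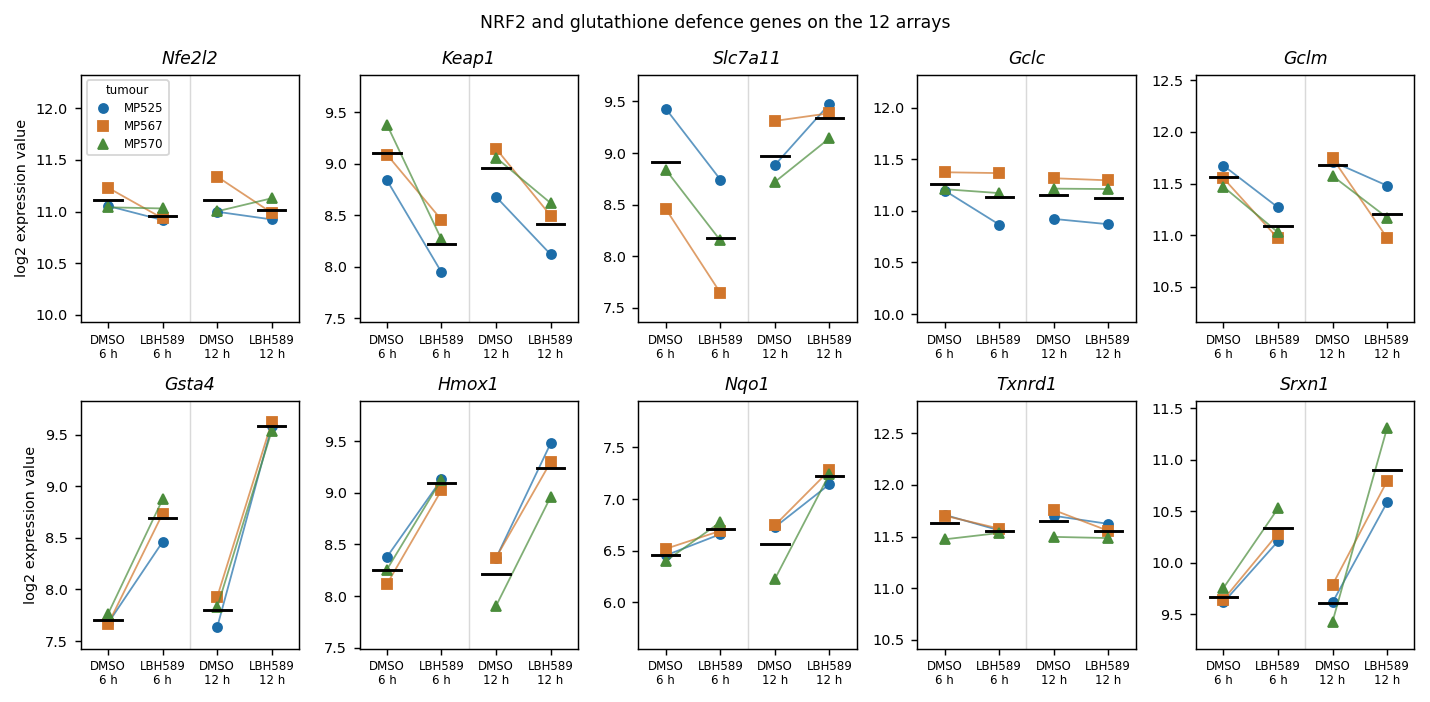
Log2 expression value of each of the 10 genes (vertical axis, the same span in every panel) on the 12 arrays, by group (horizontal axis); colours and shapes mark the tumour, lines join the DMSO and LBH589 cultures of a tumour at a time, and black bars are group means of n = 3. Gsta4 climbs from between 7.63 and 7.93 in DMSO to between 9.54 and 9.62 in LBH589 at 12 h, Keap1 and Gclm are lower in every treated culture, and Gclc and Txnrd1 hardly move.

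**Figure D2:**
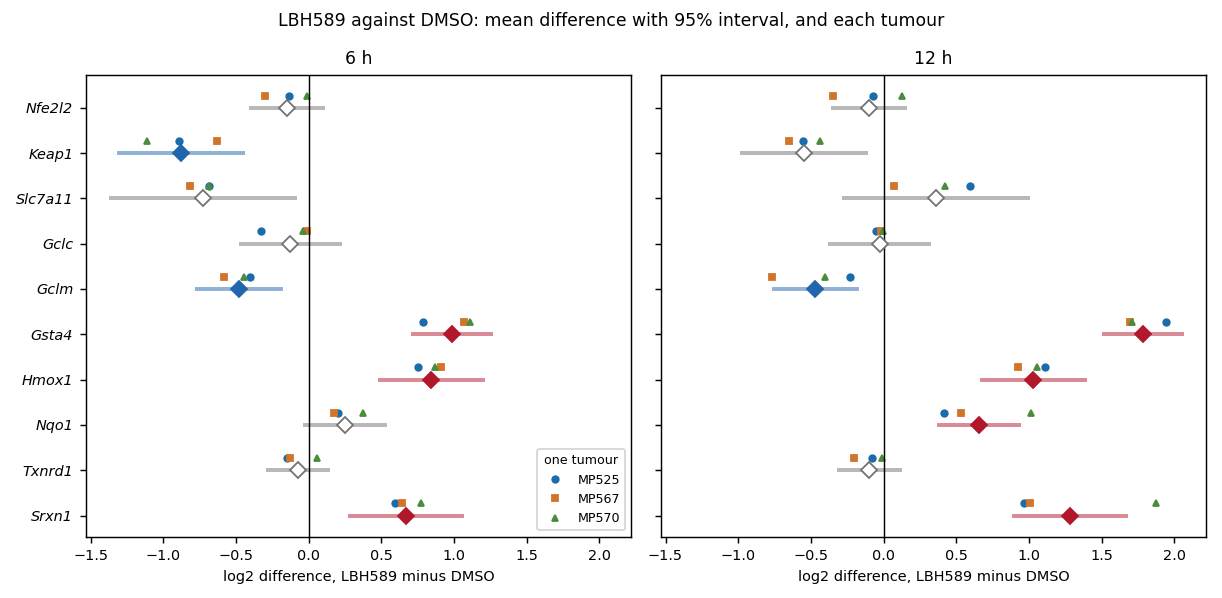
Difference in log2 value, LBH589 minus DMSO, for each gene at 6 h (left) and 12 h (right); diamonds with bars are the mean and its 95% interval, filled red or blue where the gene passed as higher or lower, and small symbols are the 3 tumours. The 3 tumours lie on the same side of 0 for every gene that passed, and Slc7a11 lies below 0 in all 3 at 6 h and above 0 in all 3 at 12 h.

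The pair at the head of the pathway is Nfe2l2 and Keap1. Nfe2l2 lay between 10.92 and 11.34 on all 12 arrays. Its difference was -0.15 at 6 h (SE 0.11, 95% interval -0.40 to 0.10) and -0.10 at 12 h (SE 0.11, -0.35 to 0.15), with adjusted p = 0.458 and 0.623. At 6 h it was lower under LBH589 in all 3 tumours and the groups did not overlap. But the differences were small, at -0.14 in MP525, -0.30 in MP567 and only -0.01 in MP570. These intervals leave out a doubling or a halving of the mRNA at either time.

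Keap1, which encodes the adaptor that holds NRF2 down, fell at 6 h. Here and below, the values of a group follow the order MP525, MP567, MP570. In DMSO at 6 h Keap1 read 8.84, 9.09 and 9.38, and in LBH589 7.95, 8.46 and 8.27. Every treated culture lay below every DMSO culture. The difference was -0.88 (SE 0.19), a 1.84-fold reduction, with adjusted p = 0.0104, and the call was lost without MP570 (adjusted p = 0.142). At 12 h Keap1 read 8.68, 9.15 and 9.06 in DMSO and 8.12, 8.50 and 8.62 in LBH589, again without overlap. This difference, -0.55 (SE 0.19), did not pass (adjusted p = 0.0738) but passed with the tumour block (adjusted p = 0.000548), as it did after median centring (-0.65, adjusted p = 0.0350).

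A second, dimmer probe set assigned to Keap1, with a mean of 7.23, did not follow. It differed by -0.09 at 6 h and -0.14 at 12 h, with adjusted p = 0.543 and 0.242. Its values spanned 7.11 to 7.43 over the 12 arrays, whereas the probe set used here spanned 7.95 to 9.38. The lower Keap1 reading therefore rests on 1 of the gene's 2 probe sets, and the part of the transcript that each reads was not analysed here.

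Among the genes that supply glutathione, the regulatory subunit of its first enzyme fell and the catalytic subunit did not pass. Gclm, the modifier subunit of glutamate-cysteine ligase, read 11.67, 11.55 and 11.47 in DMSO at 6 h and 11.27, 10.97 and 11.03 in LBH589. At 12 h it read 11.71, 11.74 and 11.57 in DMSO and 11.48, 10.97 and 11.17 in LBH589. At both times all treated cultures lay below all DMSO cultures. The differences were -0.48 (SE 0.13, adjusted p = 0.0296) and -0.47 (SE 0.13, adjusted p = 0.0283), a 1.39-fold and a 1.38-fold reduction.

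The Gclm calls were close to the threshold. Each was lost when 1 of 4 arrays of that time was omitted, namely DMSO MP525, DMSO MP567, LBH589 MP567 and LBH589 MP570 (adjusted p of at most 0.102 at 6 h and 0.0953 at 12 h). They were also lost at 6 h without any one tumour (at most 0.1998), and at 12 h without MP567 (0.208) or MP570 (0.166), or with arrays centred on reference genes (-0.34, adjusted p = 0.0540). With the tumour block the adjusted p was 0.000653 at both times, and no array or tumour left out on top of the block ended either call (adjusted p of at most 0.0185).

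Gclc, the catalytic subunit that carries out the same reaction, spanned 10.87 to 11.37. Its differences were -0.13 (95% interval -0.47 to 0.22) at 6 h and -0.03 (-0.37 to 0.32) at 12 h, with adjusted p = 0.680 and 0.942. The sign of these differences was not stable: at 12 h it was 0.03 with quantile normalization and 0.11 with arrays centred on reference genes. In DMSO and in LBH589 alike Gclc was lowest in MP525, as described below.

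Slc7a11, the cystine carrier of the exchanger xCT, read lower at 6 h and higher at 12 h. In DMSO at 6 h it read 9.43, 8.46 and 8.84, and in LBH589 8.74, 7.65 and 8.15. The drop was much alike in the 3 tumours, at -0.69, -0.81 and -0.69, although the tumours differed so much in level that the groups overlapped. At 12 h Slc7a11 read 8.88, 9.31 and 8.72 in DMSO and 9.48, 9.39 and 9.14 in LBH589. The difference was -0.73 at 6 h (SE 0.29, adjusted p = 0.118; 0.0187 with the tumour block) and 0.36 at 12 h (SE 0.29, adjusted p = 0.454). The 6 h call with the block was lost when DMSO MP525, DMSO MP570, LBH589 MP567 or all of MP570 was also left out (adjusted p of at most 0.133), and without the block the gene passed once the LBH589 6 h array of MP525 was left out (-1.01, adjusted p = 0.0438).

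Gsta4, a glutathione transferase that conjugates glutathione to the lipid peroxidation product 4-hydroxynonenal, had the largest rise of the 10 genes at both times. In DMSO it read 7.67, 7.66 and 7.76 at 6 h and 7.63, 7.93 and 7.83 at 12 h. In LBH589 it read 8.46, 8.73 and 8.87 at 6 h and 9.58, 9.62 and 9.54 at 12 h. All 6 treated cultures lay above all 6 DMSO cultures, and at 12 h the 3 treated tumours lay closer together than at 6 h. The rise was 0.99 at 6 h (SE 0.12, 1.99-fold, adjusted p = 0.000437) and 1.78 at 12 h (SE 0.12, 3.44-fold, adjusted p = 1.41e-05). Both calls held under all 25 alternative settings and omissions run.

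Hmox1, the inducible haem oxygenase that opens the haem ring and releases iron, rose at both times. It read 8.38, 8.12 and 8.26 in DMSO at 6 h and 9.13, 9.03 and 9.13 in LBH589. At 12 h it read 8.37, 8.37 and 7.90 in DMSO and 9.48, 9.30 and 8.96 in LBH589. The groups did not overlap at either time. The rise was 0.84 at 6 h (SE 0.16, 1.80-fold, adjusted p = 0.00474) and 1.03 at 12 h (SE 0.16, 2.04-fold, adjusted p = 0.00130). The 6 h call was lost without MP525 (adjusted p = 0.0502), where the difference was 0.89, and the 12 h call held in all alternatives run.

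Hmox1 is also strongly expressed by macrophages. In bulk RNA a change in the number of cells of a type and a change in RNA per cell cannot be told apart. Of 8 microglia and macrophage markers, 7 lay above the 25th percentile on every array and Ptprc did so on 6. Their mean per array was 7.55 to 7.61 in DMSO and 7.40 to 7.59 in LBH589 at 6 h, and 7.41 to 7.88 and 7.38 to 7.65 at 12 h. Of the 8, none passed at 6 h, and at 12 h Cd68, a lysosomal marker of macrophages, rose by 0.71 (adjusted p = 0.0129). Of 5 oligodendrocyte markers Cnp rose at both times (0.76 and 1.02), while Mbp, Mog, Sox10 and Mag, between -0.15 and 0.06, did not pass. Of 6 endothelial markers Kdr rose (0.81 and 0.71), and of 6 astrocyte markers none passed. Of 6 neural progenitor markers Msi1 fell at both times (-1.02 and -1.04), and at 12 h Prom1 fell (-0.98) and Vim rose (0.46). Of 6 cerebellar markers Neurod1 fell at both times (-0.71 and -0.72), and of 7 Group 3 markers Npr3 did (-1.63 and -1.61). The other markers of these lists did not pass at either time. They went in both directions, such as Nes (0.77 and 1.19) and Gabra5 (-0.65 and -0.46). The part of these markers in the results was not tested.

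Nqo1, a quinone reductase and a widely used readout of NRF2 activity, rose at 12 h. It read 6.45, 6.52 and 6.40 in DMSO and 6.66, 6.69 and 6.78 in LBH589 at 6 h, without overlap, but the difference of 0.25 (SE 0.13) did not pass (adjusted p = 0.222). At 12 h it read 6.73, 6.75 and 6.23 in DMSO and 7.14, 7.28 and 7.24 in LBH589. This rise of 0.65 (SE 0.13, 1.57-fold) passed with adjusted p = 0.00421, and it was 0.41 in MP525, 0.53 in MP567 and 1.02 in MP570. The 12 h DMSO culture of MP570 had the lowest Nqo1 value of the 12 arrays. Nqo1 lay not far above the 25th percentile of its arrays, which was 5.94 to 6.04, and it was left out by a filter at the 50th percentile.

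Of the thiol-repair enzymes, Srxn1 rose at both times and Txnrd1 did not pass. Srxn1, sulfiredoxin, which restores over-oxidised peroxiredoxins, read 9.62, 9.64 and 9.76 in DMSO at 6 h and 10.21, 10.28 and 10.53 in LBH589. At 12 h it read 9.62, 9.79 and 9.43 in DMSO and 10.59, 10.79 and 11.31 in LBH589. No treated culture overlapped a DMSO culture. The rise was 0.67 at 6 h (SE 0.18, 1.59-fold, adjusted p = 0.0243) and 1.28 at 12 h (SE 0.18, 2.43-fold, adjusted p = 0.000608), and at 12 h it was larger in MP570 (1.88) than in MP525 (0.97) or MP567 (1.004). The 12 h call held in all alternatives run. The 6 h call was lost when DMSO MP525, DMSO MP567 or LBH589 MP570 of that time was omitted (adjusted p of at most 0.0982) and without any one tumour (at most 0.116). With the tumour block it held without each array and each tumour (adjusted p of at most 0.0133).

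Txnrd1, cytosolic thioredoxin reductase, which reduces thioredoxin with NADPH, spanned only 11.47 to 11.76. Its differences were -0.07 at 6 h (95% interval -0.28 to 0.14, adjusted p = 0.705) and -0.10 at 12 h (-0.31 to 0.11, adjusted p = 0.556). Of the 10 genes it had the narrowest range over the 12 arrays.

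The upstream sequences of Srxn1, which rose, of Gclm, which fell, and of Nfe2l2, which did not pass, are shown because these genes of 1 pathway had different calls. They are the 250 bases before the annotated start, from RefSeq (mouse build GRCm38.p6), which held windows for 7 of the 10 genes (Hmox1, Gsta4 and Gclc were not among them). Capitals mark matches, on either strand, to the core of the antioxidant response element, TGACNNNGC, or to the AP-1 site TGANTCA. Srxn1 lies on the plus strand at chr2:152105274-152105523, Gclm on the plus strand at chr3:122245307-122245556 and Nfe2l2 on the minus strand at chr2:75704664-75704913.
Srxn1: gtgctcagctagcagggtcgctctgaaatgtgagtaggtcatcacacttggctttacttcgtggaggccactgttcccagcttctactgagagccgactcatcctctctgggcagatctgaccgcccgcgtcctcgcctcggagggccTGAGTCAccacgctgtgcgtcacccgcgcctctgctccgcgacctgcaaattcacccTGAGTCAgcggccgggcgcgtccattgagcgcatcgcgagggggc
Gclm: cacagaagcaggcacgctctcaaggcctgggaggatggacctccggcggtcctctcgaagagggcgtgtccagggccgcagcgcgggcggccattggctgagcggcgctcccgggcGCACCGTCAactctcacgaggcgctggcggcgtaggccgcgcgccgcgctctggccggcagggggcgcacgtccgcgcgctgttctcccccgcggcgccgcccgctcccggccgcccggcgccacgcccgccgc
Nfe2l2: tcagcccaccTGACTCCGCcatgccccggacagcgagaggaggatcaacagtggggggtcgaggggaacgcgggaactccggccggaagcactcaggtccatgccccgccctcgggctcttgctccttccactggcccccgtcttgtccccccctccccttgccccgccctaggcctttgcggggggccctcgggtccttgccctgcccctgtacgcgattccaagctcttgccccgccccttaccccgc

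The Srxn1 window held the letters TGAGTCA at 2 places, 102 to 96 and 45 to 39 bases before the start. It held no match to the antioxidant response core as spelled above. The TGAGTCA nearer the start is followed by GC, so it differs from that core only by G in place of C. Cores with that G were not searched for. The Gclm window held the core as spelled on the minus strand 134 to 126 bases before the start, and the Nfe2l2 window held it on the plus strand 240 to 232 bases before the start. The second of the 3 Txnrd1 windows also held the core, 92 to 84 bases before its start. The Keap1, Nqo1 and Slc7a11 windows held neither motif. For comparison, 10.2% of all 32851 windows of this length held the core and 6.75% held the AP-1 letters. A match in these letters is not a measured binding site, and a window without one says nothing of elements farther away.

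The change from 6 h to 12 h under the drug was largest for Slc7a11, by 1.15, and Gsta4, by 0.89, followed by Srxn1 (0.56) and Nqo1 (0.51). The LBH589 values at 12 h lay above those at 6 h without overlap for all 4, but the share of all genes without overlap was not analysed here. None of the 10 genes, and 0 of 18652 genes (0% called), passed this comparison without the block, although 1415 genes and these 4 of the 10 had an unadjusted p below 0.05. With the tumour block Gsta4 (adjusted p = 0.00168) and Slc7a11 (0.0233) passed, among 1.99% of all genes. With the tumour as a random block, at the estimated correlation, Gsta4 passed (adjusted p = 0.00372) and Slc7a11 did not (adjusted p = 0.0697). In DMSO none of the 10 genes differed between 6 h and 12 h, with 0.0214% of all genes called (0.311% with the block), and the 10 differences lay between -0.14 and 0.11.

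Whether the LBH589 effect itself differed between 6 h and 12 h was asked by the interaction of treatment and time. The effect at 12 h minus that at 6 h was 1.09 for Slc7a11 (SE 0.41), 0.79 for Gsta4 (SE 0.17), 0.62 for Srxn1 (SE 0.25) and 0.40 for Nqo1 (SE 0.18). Each was positive in all 3 tumours. None passed (adjusted p = 0.9998 for each; 0% of all genes were called, with 490 genes and these 4 of the 10 at an unadjusted p below 0.05). With the tumour block 0.0107% of all genes were called and none of the 10, the lowest adjusted p among them being 0.114 for Gsta4.

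Some of the genes differed between the 3 tumours over DMSO and LBH589 cultures together. In an F test with the group means in the fit, Keap1 (adjusted p = 0.00178), Gclc (0.00155) and Gclm (0.0390) passed, against 37.4% of all genes, so 3 of 10 is not above the share of genes at large. Gclc averaged 10.96 in MP525, 11.34 in MP567 and 11.20 in MP570 (SD 0.16, 0.04 and 0.02, n = 4 cultures each), and MP567 was highest and MP525 lowest in all 4 groups. Keap1 was lowest in MP525 in all 4 groups, at 8.40 on average against 8.80 and 8.83, but with the mean of its 2 probe sets the test gave adjusted p = 0.0573. Gclm averaged 11.53 in MP525 against 11.31 in both other tumours, but in DMSO alone the means were 11.69, 11.65 and 11.52 in MP525, MP567 and MP570. This call was lost in 10 of 20 alternatives, among them without the LBH589 12 h array of MP525 (adjusted p = 0.181). Txnrd1, with adjusted p = 0.0639, passed under each of the 3 other normalizations (0.0365 with quantile normalization, 0.0142 with median centring, 0.0325 with reference genes) and without the LBH589 12 h array of MP567 (0.0476). Slc7a11 passed without the DMSO 12 h array of MP525 (0.0329) or MP567 (0.00940), and Srxn1 without that of MP570 (0.0191).

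The source of the variation differed from gene to gene. Treatment and time groups took 98.0% of the sum of squares of Gsta4 over the 12 arrays and the tumours 0.924%. For Gclc the groups took 9.57% and the tumours 78.2%, and for Txnrd1 20.8% and 57.2%. Keap1 lay between, with 75.1% by group and 21.6% by tumour.

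**Figure D3:**
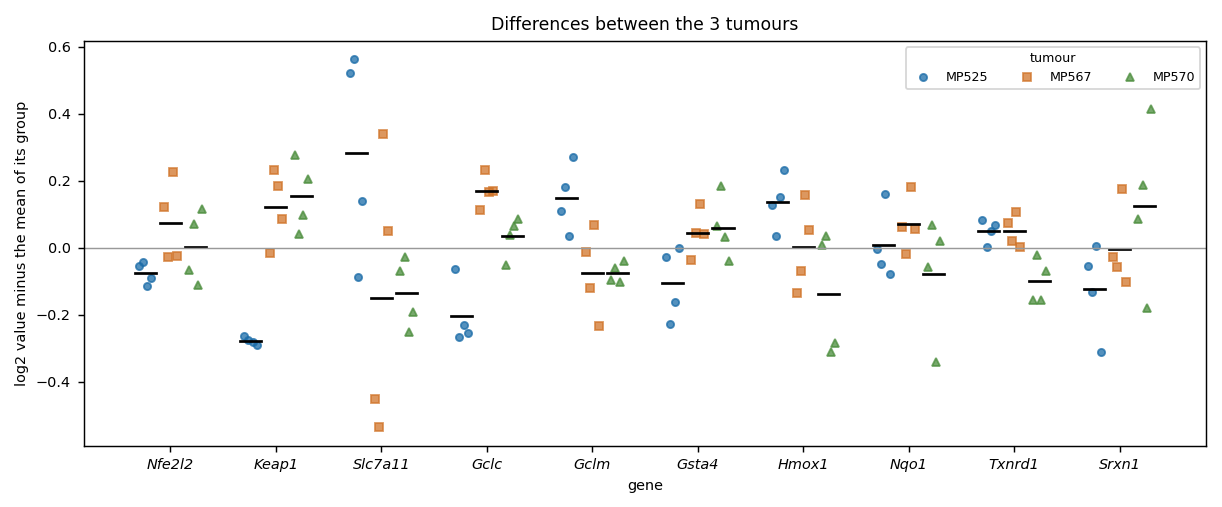
Log2 value of each culture minus the mean of its group (vertical axis), for the 10 genes (horizontal axis) and the 3 tumours; points are the 4 cultures of a tumour and black bars their mean. Gclc and Keap1 of MP525 lie below 0 in all 4 cultures, whereas the tumours of Gsta4 and Nqo1 lie closer together on average than those of Keap1 and Gclc.

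The size of the LBH589 effect was not shown to differ between tumours for any of the 10 genes, where 1.06% of all genes passed the test of treatment by tumour. Averaged over both times, the Gsta4 rise was 1.37 in MP525, 1.38 in MP567 and 1.41 in MP570. The Hmox1 rise was 0.93, 0.92 and 0.96. The widest spread was that of Srxn1, with 0.78, 0.82 and 1.32 (adjusted p = 0.456). Gclm fell by 0.32, 0.68 and 0.42 on the log2 scale (adjusted p = 0.229). Nfe2l2 differed in sign between tumours, with -0.11, -0.32 and 0.06 (adjusted p = 0.220). These 2 of the 10 genes, among 2644 of all 18652 genes, had an unadjusted p below 0.05 in this F test.

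The genes with the pattern most like that of Keap1 over the 12 arrays were Coq7 (Pearson r = 0.979), Adi1 (0.975) and Gdpd1 (0.967), all with lower means under LBH589 at both times. Those most like Nfe2l2 were B930025P03Rik (0.899), Mir5108 (0.897) and Selplg (0.893). These are the highest of 18652 values over 12 arrays that share tumours and treatments, and are given as a description.

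The wider pathway was read from 7 lists of genes, and its members likewise moved in both directions. Over all genes 8.49% passed as higher and 7.31% as lower at 6 h, and 9.13% and 9.07% at 12 h; with the tumour block these shares were 18% and 16%, then 18.6% and 18.5%. Of 14 tested partners, competitors and regulators of NRF2, 3 rose and none fell at 6 h, and 3 rose and 2 fell at 12 h; the median change was -0.03 and -0.05. With the tumour block it was 4 and 2 at 6 h, and 3 and 4 at 12 h. The list's share called was 21.4% at 6 h and 35.7% at 12 h, where 15.8% and 18.2% of all genes were called, and 42.9% and 50% with the block, where it was 34% and 37.1%. Nfe2l3, a relative of NRF2, rose by 1.17 (SE 0.21, adjusted p = 0.00340) and 1.02 (adjusted p = 0.00609). The small MAF partners diverged, with Mafk higher by 0.77 (adjusted p = 0.0117) and 0.73 (0.0127), and Mafg lower at 12 h by -0.60 (adjusted p = 0.00775). Sqstm1, the autophagy adaptor p62 that can draw KEAP1 into degradation, rose from 11.34 to 12.00 at 6 h (0.66, adjusted p = 0.00347) and from 11.40 to 12.12 at 12 h (0.72, adjusted p = 0.00189).

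Of 15 tested genes of glutathione synthesis, recycling and breakdown, 2 rose and none fell at 6 h, and 2 rose and 3 fell at 12 h (5 and 4, then 6 and 3, with the block). That is 13.3% called at 6 h, below the 15.8% of all genes, and 33.3% at 12 h against 18.2%; with the block it is 60.0% at each time, against 34% and 37.1%. Gsr, glutathione reductase, fell at 12 h from 11.19 to 10.51 (-0.68, SE 0.18, adjusted p = 0.0241). Its call was lost when LBH589 MP525, LBH589 MP570 or DMSO MP567 of that time was omitted (adjusted p of at most 0.0887) and with arrays centred on reference genes. Cbs, which starts the route from homocysteine to cysteine, rose at 12 h from 8.59 to 9.92 (1.33, SE 0.38, adjusted p = 0.0314), a call lost when LBH589 MP525, LBH589 MP570, DMSO MP567 or DMSO MP570 of that time was omitted (at most 0.114). Chac1, which breaks glutathione down, rose at 6 h by 1.02 (adjusted p = 0.0337), and the glutaredoxin Glrx by 0.59 (0.0351). Both calls were lost without either 6 h array of MP525, the DMSO 6 h array of MP567 or the LBH589 6 h array of MP570 (at most 0.138), and that of Glrx also with quantile normalization.

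The glutathione transferases other than Gsta4 were the list with the most genes rising at 12 h. Of 20 tested, 3 rose and 1 fell at 6 h, and 6 rose and 1 fell at 12 h, with a median change of 0.06 and 0.25 (5 and 2, then 9 and 1, with the block). The share that rose was 15.0% and 30.0%, against 8.49% and 9.13% of all genes, and 25.0% and 45.0% with the block, against 18% and 18.6%. Gstk1, the mitochondrial and peroxisomal kappa-class enzyme, rose by 1.17 (SE 0.26, adjusted p = 0.0110) and 1.76 (adjusted p = 0.000978). The microsomal Mgst3 rose by 1.19 (adjusted p = 0.00462) and 1.43 (0.00140). Of the theta class, Gstt3 rose at both times (0.50 and 0.71, adjusted p = 0.0158 and 0.00195) and Gstt2 at 12 h by 1.02 (0.00249). The 6 h call of Gstk1 was lost when LBH589 MP570 was omitted (adjusted p = 0.0508), and that of Gstt3 when LBH589 MP567 or DMSO MP570 was (at most 0.0567) or after median centring. Genes of this family share sequence, so signal from a near-identical relative on a probe set cannot be told apart here.

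Of 20 tested genes that remove peroxides and superoxide, 2 rose and 1 fell at each time, with medians of -0.08 and -0.11 (4 and 3, then 3 and 6, with the block). The 15.0% called at each time is no more than the 15.8% and 18.2% of all genes, and with the block it is 35.0% and 45.0%, against 34% and 37.1%. Msrb1, a methionine sulfoxide reductase, rose by 1.24 (SE 0.19, adjusted p = 0.00142) and 1.23 (0.00119). Txnip, an inhibitor of thioredoxin, rose by 1.14 (adjusted p = 0.0158) and 1.54 (0.00269), and its 6 h call was lost when LBH589 MP525, LBH589 MP567 or DMSO MP570 was omitted (at most 0.0581). Txnrd2, the mitochondrial relative of Txnrd1, fell by -0.56 (adjusted p = 0.00321) and -0.51 (0.00436). Catalase and both intracellular superoxide dismutases did not pass at either time without the block. With it, Cat (0.36, adjusted p = 0.0215) and Sod2 (0.13, 0.0376) were higher at 6 h, and Sod1 was lower at 12 h (-0.18, 0.0170).

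The list of enzymes linked to the supply of NADPH, the reductant of Gsr and the thioredoxin reductases, had a negative median change at both times. It was drawn broadly, and not all of its enzymes make NADPH themselves. Of 10 tested, none rose and 3 fell at 6 h, and 1 rose and 5 fell at 12 h, with medians of -0.27 and -0.37 (2 and 5, then 1 and 7, with the block). The share that fell was 30.0% and 50%, against 7.31% and 9.07% of all genes, and 50% and 70.0% with the block, against 16% and 18.5%, in a list of only 10 genes. Malic enzyme Me1 fell at 6 h from 9.88 to 8.74 (-1.13, SE 0.32, adjusted p = 0.0338) and at 12 h from 10.40 to 9.13 (-1.27, adjusted p = 0.0176). Its mitochondrial relative Me2 fell by -0.47 (adjusted p = 0.0349) and -0.74 (0.00310). Idh1, cytosolic isocitrate dehydrogenase, fell at 12 h by -0.66 (adjusted p = 0.0289), and the pentose phosphate enzyme Taldo1 rose at 12 h by 0.68 (0.0178).

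Without the block, single arrays decided several calls of the NADPH list. Me1 was lost at 6 h when LBH589 MP525, LBH589 MP567, DMSO MP567 or DMSO MP570 was omitted (adjusted p of at most 0.123), and at 12 h when LBH589 MP525, LBH589 MP567 or DMSO MP570 was (at most 0.0711). The 6 h call of Me2 needed DMSO MP525, DMSO MP567, LBH589 MP567 and LBH589 MP570 (at most 0.121 with any of them omitted). Idh1 was lost without any one of the 6 arrays of 12 h (at most 0.0956) and with arrays centred on reference genes, and Taldo1 when DMSO MP525 or LBH589 MP570 of 12 h was omitted (at most 0.0706).

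Of 13 tested genes of haem and iron handling, 2 rose and none fell at each time, with medians of 0.20 and 0.12 (6 and 1 at each time with the block). The 15.4% called at each time is no more than the 15.8% and 18.2% of all genes, and with the block it is 53.8%, against 34% and 37.1%. Blvrb, biliverdin reductase B, which acts after haem oxygenase, rose from 8.55 to 10.13 at 6 h (1.58, SE 0.19, 2.99-fold, adjusted p = 0.000365) and from 8.70 to 10.36 at 12 h (1.67, 3.17-fold, adjusted p = 0.000226). Slc48a1, a haem transporter, rose by 0.81 (adjusted p = 0.0335) and 0.85 (0.0233), and its calls were lost when LBH589 MP525, LBH589 MP570, DMSO MP567 or DMSO MP570 of that time was omitted (at most 0.122 and 0.0865). Of the erythroid markers, Klf1 and Slc4a1 were on the array and neither passed.

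Of 18 tested detoxification genes widely given as NRF2 targets, 2 rose and 2 fell at 6 h, and 2 rose and 1 fell at 12 h, with medians of 0.03 and 0.05 (4 and 3, then 4 and 2, with the block). The share called, 22.2% and 16.7%, lay near the 15.8% and 18.2% of all genes, as did 38.9% and 33.3% with the block, against 34% and 37.1%. Ephx1, microsomal epoxide hydrolase, rose by 1.26 (SE 0.25, adjusted p = 0.00622) and 1.22 (0.00632). Ptgr1, which reduces reactive aldehydes and ketones, rose by 0.59 (adjusted p = 0.0344) and 1.14 (0.000937). Pir, pirin, fell by -0.74 (adjusted p = 0.0422) and -1.19 (0.00345), and the exporter Abcc5 fell at 6 h by -0.39 (0.0358). Without the block, the 6 h calls of Ptgr1, Pir and Abcc5 were close to the threshold (with it, adjusted p = 0.0110, 0.000163 and 0.00244). That of Ptgr1 was lost without either 6 h array of MP525, the DMSO array of MP567 or the LBH589 array of MP570 (adjusted p of at most 0.125), that of Pir without any array of MP525, either 6 h array of MP567 or the DMSO 6 h array of MP570 (at most 0.156), and that of Abcc5 without any one of the 6 arrays of 6 h (at most 0.124). Ptgr1 was also lost with quantile normalization or median centring, and Pir and Abcc5 with arrays centred on reference genes.

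**Figure D4:**
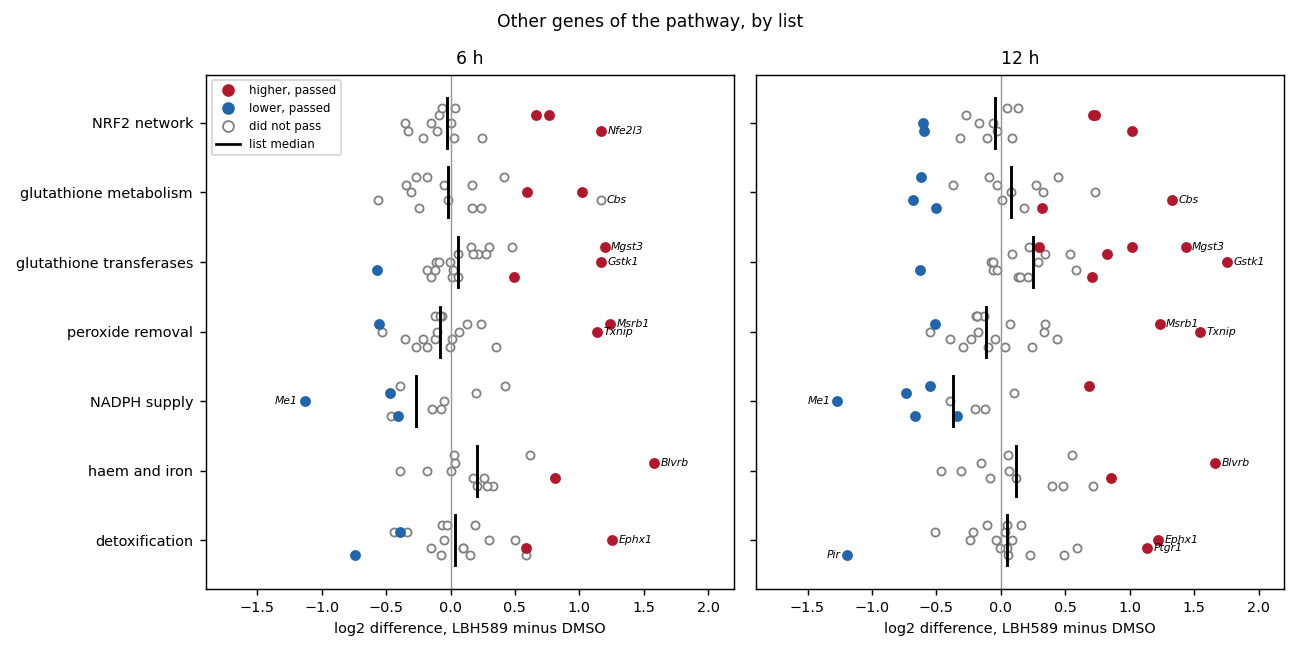
Difference in log2 value, LBH589 minus DMSO (horizontal axis), at 6 h (left) and 12 h (right) for the tested genes of the 7 lists (vertical axis, points offset for legibility); filled points passed as higher (red) or lower (blue), open points did not pass, and black bars are list medians. The medians lie between -0.37 and 0.25 while single genes such as Gstk1, Blvrb and Txnip exceed 1.5 at 12 h.

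Across the 7 lists the naming rule gave 19 calls at 6 h and 22 at 12 h. Without the block, 8 and 16 of them held when any single array was left out, and 3 (Sqstm1, Msrb1 and Blvrb) and 10 also when any whole tumour was left out, which leaves 8 arrays and 4 residual degrees of freedom. With the tumour block, 18 of the 19 (all but Ptgr1) and all 22 held without each array and each tumour in turn. The block also called several named genes at the time at which they had not passed, in the same direction. At 6 h these were Cbs (adjusted p = 2.65e-06), Gsr (3.06e-05), Taldo1 (0.00336), Idh1 (0.00845), Mafg (0.0107) and Gstt2 (0.0270). At 12 h they were Chac1 (0.000933) and Glrx (0.0413). A call at 1 time only without the block is thus no sign that these genes changed at that time alone.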

How the data were processed

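Total RNA of 12 cultures was measured on 12 arrays, 1 per culture, after biotin labelling with a GeneChip kit, per the labels. The authors deposited a log2 expression value for each probe set; that the base is 2 was judged from the range, 1.50 to 14.5. The submitters' processing notes name Agilent Feature Extraction 10.7.3.1, and the summarisation and normalization used were not given in the sources used here. Medians of arrays were close, so nothing was renormalized. Arrays have no counting depth, and their number limits the precision.

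Of 41345 probe sets, 23521 named 1 gene (23328 symbols updated from RefSeq), 1814 named several and were not used, and 16010 were not listed by the annotation. The probe set with the highest mean stood for each of 22180 genes, and the 18652 genes above their array's 25th percentile on at least 3 of 12 arrays were tested. Differences were tested with limma 3.58.1 in R 4.3.3 (lmFit, eBayes with a mean-variance trend) on 4 group means with 8 residual degrees of freedom, with Benjamini-Hochberg adjustment over all genes tested, and the 95% intervals come from the same fit; tumour differences and treatment-by-tumour terms used moderated F tests. The fits were tested on simulated data. P-values of the fit without the block measure the spread between these 3 tumours within groups. With the block they measure how far the differences vary from tumour to tumour. In the F tests the cultures of a tumour stand as its repeats, so those tests speak of these 3 tumours only. The tumour pairs the arrays, per the labels: over 18 pairs of arrays of the same tumour, deviations from group means correlated at 0.450 to 0.805, and those of different tumours at -0.510 to -0.0577. Deviations within a group cancel out, so the negative values follow in part from the arithmetic. Because of this pairing, the fit with tumour as a replicate block (6 residual degrees of freedom) is also given. It is given where it changed a count or a call of a core gene or named list gene.

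Up to 4 genes were named per pathway list, those called at either time with the largest mean change; all 10 core genes were named. The genes and lists were chosen with earlier results of these data known. Rbx1, Ggt1, Gsta1, Gsta2, Gstm5, Gstz1, Prdx1, Prdx5, Prdx6, G6pdx, Tkt, Ftl1, Akr1b3, Ugt1a6a and Esd, listed without a probe set of their own, were not analysed here, and Gpx2 was below the filter. A second Slc7a11 probe set (mean 4.40) lay below the 25th percentile on all arrays. Alternatives were other normalizations, filters, probe-set rules and blocks, and leaving out each array or tumour.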

Additional observations from a re-analysis of the deposited data

Results flagged for a closer look

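Slc7a11 drew attention because its LBH589 effect changed sign with time. In all 3 tumours it was lower than in DMSO at 6 h and higher at 12 h, and the effect at 12 h minus that at 6 h was 1.09 on the log2 scale (SE 0.41). The test of the interaction did not pass (limma, adjusted p = 0.9998; 0.329 with the tumour as a replicate block). The 3 DMSO cultures themselves moved by -0.55 (MP525), 0.85 (MP567) and -0.12 (MP570) between 6 h and 12 h.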

How the results depend on the processing

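The calls of Gsta4 at both times, and of Nqo1, Hmox1 and Srxn1 at 12 h, held in all 25 alternatives first listed in which the gene was tested (Nqo1 was not tested with the 50th-percentile filter). Each group held 3 tumours, which limits the precision, and Nqo1 lay little above the filter on dim values. With the tumour as a replicate block the paired fit called 6333 genes at 6 h, 6928 at 12 h, 8566 on average over both times, 2 for the interaction, 58 for time in DMSO and 371 for time in LBH589, 2 of them among the 10 core genes. It ended no call of a core gene and added Slc7a11 at 6 h and Keap1 at 12 h. As a random block it called 5493 and 6087 genes at 6 h and 12 h, 2 for the interaction, 23 and 25 for time in DMSO and in LBH589, and for the latter 1 core gene, Gsta4. Time in DMSO gave 7 genes with quantile normalization and 7 with arrays centred on reference genes. The interaction gave 2 with median centring, and the effect by tumour 100 genes without a mean-variance trend.

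Leaving out 1 array or 1 tumour gave 879 to 2994 genes at 6 h, 1265 to 3370 at 12 h, 3308 to 5288 on average, 0 to 2 for the interaction, 0 to 15 and 0 to 1 for time in DMSO and LBH589, 56 to 309 for the effect by tumour, and 2 to 6 core genes at 6 h. Small differences changed sign: at 12 h Gclc was 0.0347 with quantile normalization and 0.11 with arrays centred on reference genes, which also gave 0.0314 for Nfe2l2 and 0.0336 for Txnrd1. With arrays or tumours left out, with or without the block, Gclc ranged from -0.24 to 0.0085 at 6 h and from -0.14 to 0.10 at 12 h, and Nfe2l2 from -0.21 to 0.0260 at 12 h. The omissions combined with the block were chosen after seeing the data. The cause of these changes was not tested.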
